A study of Mus musculus with 2 samples.

Results

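Some circular RNAs (circRNAs) of mouse intestinal cells were deposited with a FANTOM transcript as host in place of a gene symbol. They were taken as all entries of either library whose host name carries the FANTOM prefix. There were 783 of them among 31496 listed circRNAs, against 29788 with a gene symbol as host and 925 with no host. Of the 783, 636 had at least 1 read across the back-splice junction and 147 had none. They carried 491 FANTOM names, of which 404 had a read. The study sorted intestinal cells of the reporter strain Lgr5GFP-CreERT2, aged 2 months, by flow cytometry. Lgr5+ cells gave the library labelled ISC (intestinal stem cell) and Lgr5- cells the library labelled non-ISC. Both groups carry the same reporter allele, no drug treatment is named, and the sources used here do not say whether animals were pooled. RNA was depleted of ribosomal RNA and digested with RNase R, an exonuclease that removes linear RNA, before sequencing.

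A circRNA forms when splicing joins a donor back to an acceptor upstream of it, so that the exons between them close into a ring. Most circRNAs of mammals take whole exons of protein-coding genes, often starting at the second exon, and are named after that gene. FANTOM is a catalogue of full-length mouse cDNA clones made at RIKEN, and its clones include noncoding transcripts, antisense transcripts and alternative or truncated forms of known genes. A clone name as host therefore says which transcript model an entry was placed on, and it can hide the gene.

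The junctions that identify 8 of the most abundant FANTOM circRNAs are shown because a read had to cross exactly this join to be counted. They were read from GENCODE M21 transcripts (GRCm38) on the strand of the gene, 5′ to 3′. The last 15 bases of the last exon are in lower case and the first 15 bases of the first exon follow in capitals.
Pvt1: agctccctctaaaatGTCTGATTTTCTTAA
Ipo7: tgtgaaaaattatgaGCACACAAGTCTCTG
Farsa: ctttcttcctgcgagGATCCTGAAAACCTA
Eif4e3: cagtgttttataaacATCACTCCCTGGTGC
Rrp15: cccaaagccagacagGAAGCTGTGACTCAG
Klhl2: gaggagaacgtgcagATGCACAAAGCAGGG
Rnf115: gccagctatcgaaggGAATATATATGTCCC
Srcap: gttcatcctctccagGTTCTGCGACCTTTT
In these 8 entries the annotation puts both ends on exons of 1 transcript of the named gene, although the deposited host is a clone. Their spliced lengths, counting the annotated exons between the ends, ran from 318 nt for Pvt1 to 557 nt for Rrp15.

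Each group had 1 library, so differences between them lack a replicate check and are given with no p-value. The libraries held 156582 junction reads (labelled ISC) and 76331 (labelled non-ISC). Ratios divide the share of those totals labelled ISC by the share labelled non-ISC, with exact conditional 95% intervals, which cover counting error only. A limit of 3 counts for a count of 0 comes to 19.2 and 39.3 per 1000000 junction reads. The labels did not match the marker genes, read from circRNAs hosted by symbol. Lgr5 itself had 0 reads labelled ISC and 7 labelled non-ISC, and 10 stem cell genes together had 33 and 171, a ratio of 0.0941 (0.0627 to 0.137), with reads of 2 and of 8 of them. For 19 epithelial genes the sums were 10 and 3414 reads, with 3 of the 19 at a read in the library labelled ISC. For 20 lymphocyte genes the sums were 7554 and 160 reads, from 19 genes and 12, with Cd3e at 0 in both. Single genes weigh heavily in these sums: Satb1 gave 4292 of the 7554 lymphocyte reads and Btnl1 2421 of the 3414 epithelial reads. The gene lists were chosen with earlier results of these data known. The differences in marker reads run beside every comparison below, and their part in them was not tested. The libraries are therefore called by their labels throughout.

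FANTOM circRNAs made up a small portion of the circRNAs and junction reads of both libraries. The library labelled ISC had 419 with a read, from 292 FANTOM names, which was 2.27% of its circRNAs. The library labelled non-ISC listed 425, of which 264 had a junction read, from 173 names, or 2.16% of its circRNAs with a read. They held 2116 junction reads (2027 to 2208, exact Poisson) labelled ISC, 1.35% of that library (1.295 to 1.41, exact binomial). The other library had 940 reads (880.9 to 1002), or 1.23% (1.154 to 1.312). The ratio of the shares was 1.10 (1.016 to 1.186), and circRNAs named by symbol had 1.01 (0.998 to 1.015). Scaled to the totals that the RPM values imply, the FANTOM ratio was 3.09. These totals change the ratio of every circRNA by the same factor, so this move is not particular to FANTOM entries. With the deposited count column in place of junction reads the FANTOM ratio was 0.315, so its direction rests on the column used. The value by symbol with that column is not given here. A single entry also set the direction of the FANTOM ratio. Without the most abundant circRNA, placed on Zeb1 below, 1561 and 932 reads were left and the ratio was 0.8165 (0.752 to 0.886). That entry alone held 26.2% of the FANTOM reads labelled ISC and 0.851% of those labelled non-ISC.

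Most FANTOM entries were thinly covered, more so than circRNAs named by symbol. In the library labelled ISC, 69.7% (65.0 to 74.1) had 1 or 2 reads, against 53.9% of circRNAs named by symbol, and in the other library the shares were 70.1% (64.2 to 75.5) and 56.0%. Over both libraries 38 of 636 reached 10 reads, which is 5.98% (4.26 to 8.11), against 14.4% (13.99 to 14.86) by symbol. Few were found in both libraries. The 47 shared entries were 11.2% of those labelled ISC and 17.8% of those labelled non-ISC, where circRNAs named by symbol had 24.3% and 37.5%. Among entries with at least 10 reads, 18 of 38 (47.4%, 31.0 to 64.2) had reads in both, against 70.0% by symbol. The difference in sharing was thus present at the same minimum reads over all entries. It was smaller among entries with both ends on exons of 1 transcript. Of these, 20% (14.3 to 26.8) of FANTOM entries with a read were in both libraries, against 21.6% by symbol. At 10 reads the shares were 60% (38.7 to 78.9) and 70.1%. All FANTOM entries with at least 10 reads had a median of 17 reads over both libraries against 20 by symbol and a mean of 44.4 against 47.3. The leading entry, placed on Zeb1 with 555 and 8 reads, raises that FANTOM mean, so coverage was not matched. The parts of coverage and of where the ends lie in the lower sharing were not tested. Over all entries with a read the means were 5.05 and 3.56 reads an entry against 8.65 and 6.47.

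To be called higher or lower, a circRNA needed 10 reads in the sum of both libraries, a ratio of 2 or more either way and an interval excluding 1. In bulk libraries fewer cells of a type and less RNA per cell cannot be told apart. Of 38 FANTOM circRNAs, 16 were higher in the library labelled ISC (42.1%, 26.3 to 59.2), where 32.4% of all 3659 circRNAs were. Another 12 were lower (31.6%, 17.5 to 48.7), where 23.0% of all were, and 10 passed neither way. For each direction alone the background share lies within the members' interval. Taken in either direction, 28 of 38 passed (73.7%, 56.9 to 86.6), and the 55.4% of all that did lies below that interval. At 10 reads or more, an entry with 0 in 1 library always passes, so this share partly repeats the lower sharing above. The interval also treats entries of the same locus, such as those of Rbm39, as independent. Of the 16 higher, 13 lacked any read labelled non-ISC, and of the 12 lower, 7 lacked any labelled ISC. A missing entry need not mean 0 reads in the cells, so such entries are given as reads with no fold. Among the 18 with reads in both, 3 were higher and 5 lower, against 15.7% and 20.2% (35.8% either way) of all 2542 such circRNAs. The median log2 ratio of the 38 was 0.37, and 0.34 for circRNAs named by symbol (pseudocount of 0.5 reads). For the 18 with reads in both it was -0.31. Summed by host name, the median was -0.47 for 53 FANTOM names with at least 10 reads, and 0.17 for 2867 gene symbols. The side of the FANTOM median thus rests on the unit counted. Of the 53 names, 16 were higher (18.34% to 44.34%) and 18 lower (21.52% to 48.27%). The shares of all 2920 host names, 26.7% and 22.7%, lie within these intervals.

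**Figure D1:**
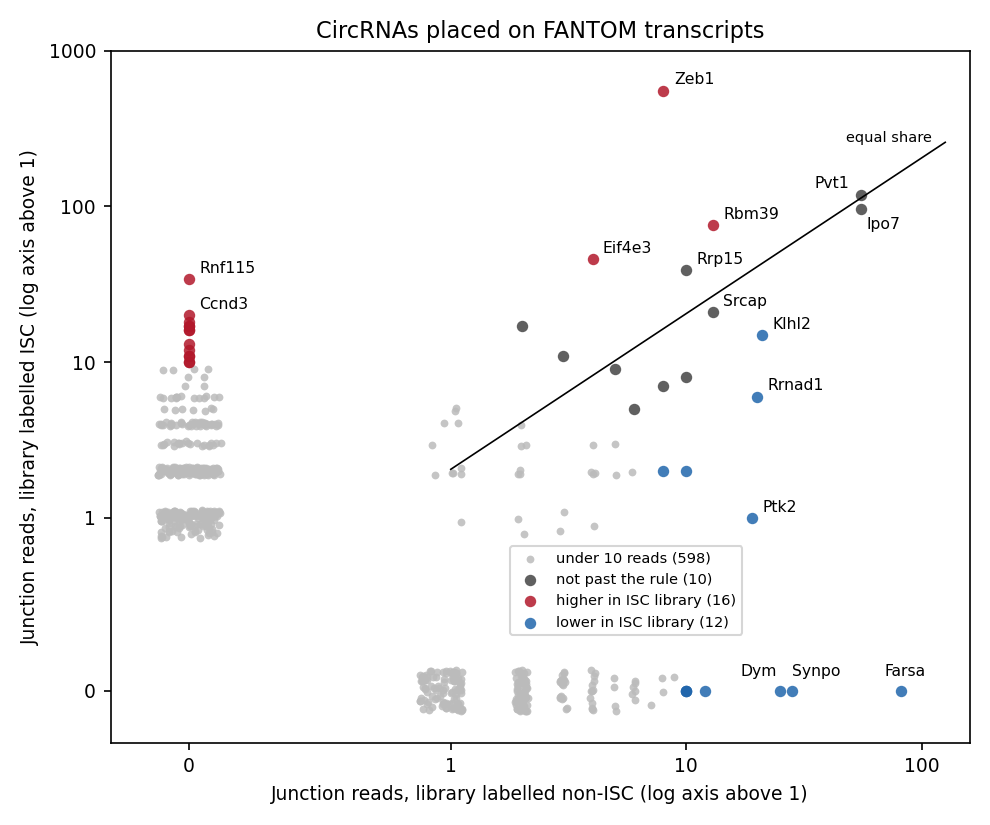
Junction reads of the 636 FANTOM circRNAs with a read in the library labelled non-ISC (x axis) and labelled ISC (y axis), each on a log scale above 1 and named by the annotated gene at the locus. Red and blue points are the 16 higher and 12 lower circRNAs, dark points the 10 that passed neither way, and small grey points, spread slightly for visibility, those under 10 reads; the line marks equal shares of the totals, and most points lie on either axis.

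The abundant entries are described by the role of the gene at their locus, starting with regulators of transcription. The files give no strand, so the gene was taken by position alone. Zeb1, a zinc finger repressor known for epithelial to mesenchymal transition, held the leading entry (clone A630007I07, chr18:5633204-5641518). It had 555 reads labelled ISC and 8 labelled non-ISC, a ratio of 33.8 (17.04 to 78.72). It shares its start with the longer chr18:5633204-5705243 that the files name Zeb1, with 564 and 10 reads and a ratio of 27.5 (14.8 to 57.7). On the plus strand the shared start is the acceptor, so both circles begin at the same exon and the FANTOM one ends earlier. Its ends lie on exon ends of different Zeb1 transcripts. Both entries had intervals far above 2. Srcap, a chromatin remodelling ATPase, had 21 and 13 reads on exons 15 to 16 (chr7:127534548-127534961), a ratio of 0.787 (0.376 to 1.71). Pvt1, a long noncoding RNA beside Myc, gave the same single-exon circle in both libraries: exon 2, chr15:62107148-62107465, with 119 and 55 reads and a ratio of 1.06 (0.76 to 1.48). At 318 nt it was the shortest with at least 10 reads.

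Among RNA and translation factors, Rbm39, an RNA-binding splicing regulator, had 3 entries that were higher in the library labelled ISC. Exons 3 to 4 (chr2:156177633-156178952) had 76 and 13 reads, a ratio of 2.85 (1.571 to 5.596). The other entries, chr2:156174097-156176457 and chr2:156174707-156176457, had 16 and 13 reads labelled ISC and 0 labelled non-ISC. Eif4e3, a member of the cap-binding eIF4E family, had 46 and 4 reads on exons 2 to 6 (chr6:99632257-99651791), a ratio of 5.61 (2.05 to 21.4). Farsa, the alpha subunit of phenylalanyl-tRNA synthetase, went the other way. Its exons 5 to 7 (chr8:84864058-84864552) had 0 reads labelled ISC and 82 labelled non-ISC, the highest of any FANTOM circRNA in that library. The next genes of this kind did not pass: Rrp15, a ribosome biogenesis factor, and Ipo7, a nuclear import receptor. Rrp15 had 39 and 10 reads (chr1:186736116-186739863, exons 2 to 4, ratio 1.90, 0.932 to 4.27). Ipo7 had 97 and 55 (chr7:110027071-110031766, exons 2 to 4, ratio 0.860, 0.611 to 1.22).

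A pair of abundant entries lie on ubiquitin ligase genes. Klhl2, a Kelch-like substrate adaptor, had 15 and 21 reads on exons 2 to 4 (chr8:64811680-64834568), a ratio of 0.348 (0.167 to 0.709), which passed as lower. With totals implied by RPM its ratio was 0.981 (0.470 to 1.996) and it did not pass. Rnf115, a RING ubiquitin ligase, had 34 reads labelled ISC on exons 2 to 4 (chr3:96754335-96775841) and none labelled non-ISC, where the entry is listed with a deposited count of 12 but 0 junction reads. Ccnd3, a D-type cyclin, had 20 and 0 reads (chr17:47575906-47580516), with 1 end on an exon end. The noncoding locus 3110039I08Rik had 18 and 0 reads over 53195 nt (chr9:41475006-41528200). Fry, which encodes a scaffold of NDR kinases, had 11 and 0 reads over 56267 nt (chr5:150140469-150196735), the longest with at least 10 reads. The most clearly lower entries beside Farsa lay on genes of varied roles. Synpo, an actin-associated protein, had 0 and 28 reads on exon 2 (chr18:60629452-60630085). Dym, a Golgi-associated protein, had 0 and 25 on exons 7 to 8 (chr18:75080203-75082507). Ptk2, focal adhesion kinase, had 1 and 19 (chr15:73391759-73394744), a ratio of 0.0257 (0.000618 to 0.161). Chmp4c, an ESCRT subunit, had 0 and 12 (chr3:10385279-10391748), and Mgam, the brush border maltase-glucoamylase, 0 and 10 (chr6:40692953-40729127). Gas5, a noncoding host of small nucleolar RNAs, had 11 and 3 reads at 372 nt (chr1:161036208-161036579), a ratio of 1.79 (0.472 to 9.98).

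The lists of marker and function genes met few FANTOM entries. At lymphocyte genes there were 5 with a read, 12 reads labelled ISC and 3 labelled non-ISC, within the spans of Bach2, Cd247, Tcf7 and Tox. The lists count any entry that overlaps a listed gene, and the Bach2 entries, with 8 and 1 reads, lie at the noncoding Bach2it1, a sense intronic gene inside Bach2. None reached 10 reads, and the summed ratio was 1.95 (0.526 to 10.8), where the same list read by symbol had 23.0 (19.7 to 27.1). At epithelial genes 4 had a read, 0 and 15 reads, from Mgam and Vil1, which encodes the brush border actin bundler villin. At stem cell genes a single entry, at Smoc2, was listed, with 0 reads. Chromatin regulators had 4 entries with 14 and 3 reads, at the acetyltransferase Crebbp and the histone methyltransferase Ehmt1. RNA-binding genes had 7 with 118 and 13 reads, a ratio of 4.43 (2.49 to 8.56). Rbm39 held 114 of the 118 and all 13. The ubiquitin list of 28 genes and the cell division list of 31 met none. They do not hold Klhl2, Rnf115 or Ccnd3, and the chromatin list does not hold Srcap. The lists therefore do not show an absence from these functions. T cell receptor loci, outside the lists, had 6 entries on chromosome 14, at Trav12n-1, Trav17, Trdc, Traj6 and Trac, with 10 reads labelled ISC and 0 labelled non-ISC. Each of the 6 had 1 or 2 reads, and of all 636 FANTOM entries with a read 47 had reads in both libraries.

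Compared with exon boundaries, FANTOM circRNAs differed from those named by symbol. Both ends lay on annotated exon ends for 31.5% (27.1 to 36.2) of entries with a read labelled ISC and 36.7% (30.9 to 42.9) labelled non-ISC, against 75.7% and 79.7% by symbol. The abundant entries held most of the reads: entries with both ends on exon ends had 66.9% and 64.5% of FANTOM reads. Among the 38 with at least 10 reads, 28 had both ends on exon ends (73.7%), against 94.2% by symbol. Over both libraries 170 of 636 had both ends on 1 transcript, 133 had 1 end on an exon end, and 246 (38.7%, 34.9 to 42.6) lay inside a gene with neither end on an exon end. Of circRNAs named by symbol 13.7% were of this last kind. No gene was annotated at 27 entries, and 25 were mitochondrial.

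With no exon numbers or spliced lengths given here by symbol, the 170 on 1 transcript are described alone and are exonic by definition. They held a median of 3 exons and 396.5 nt (quartiles 285.2 and 663.8), 58 (34.1%) started at exon 2, and 1 included exon 1. Of the 170, 142 (83.5%) lay in protein-coding genes and 8 in lincRNAs. Their reads, 790 and 585, gave a ratio of 0.658 (0.591 to 0.734), which was 1.001 (0.992 to 1.011) for the same class by symbol. The Farsa entry gave 82 of the 585. The 246 inside genes had 373 and 145 reads, a ratio of 1.25 (1.03 to 1.53), and none of them had reads in both libraries. By symbol 30 of 3399 did (0.883%), so a lack of sharing was common to this class.

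**Figure D2:**
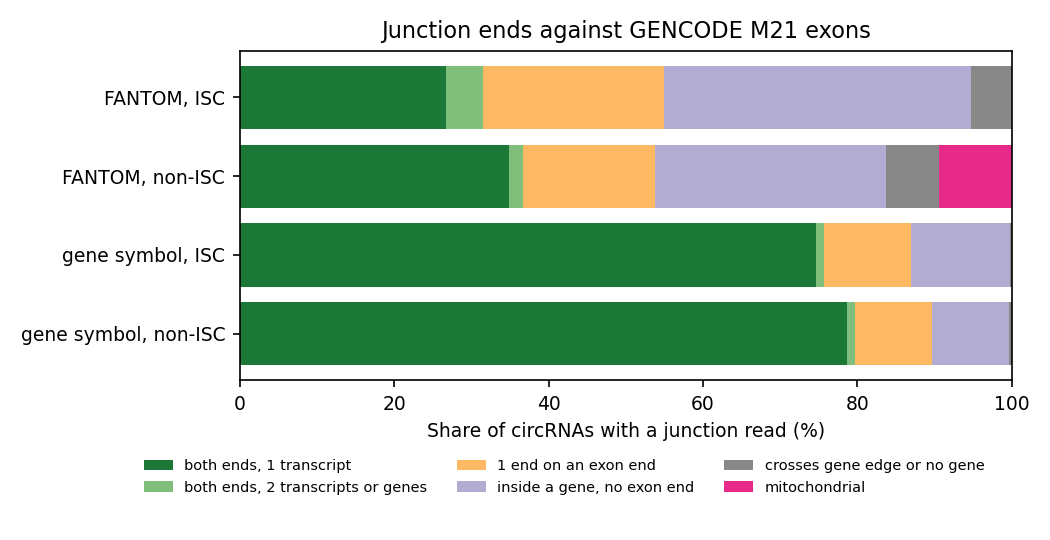
Share of circRNAs with a junction read (x axis, percent) by where their ends lie, for FANTOM hosts and hosts named by gene symbol in the libraries labelled ISC and non-ISC. The dark green share, both ends on 1 transcript, is smaller for FANTOM hosts in both libraries (26.7% and 34.8%), the violet share, inside a gene off exon ends, is larger, and mitochondrial entries appear among FANTOM hosts labelled non-ISC.

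FANTOM circRNAs spanned less of the genome. The median span was 2775 nt labelled ISC (quartiles 390 and 12705) and 2952 nt labelled non-ISC (441 and 11431). By symbol the medians were 5016 and 5995 nt. Spans ran from 122 to 96046 nt and from 152 to 98017 nt in the respective libraries. At most 500 nt were spanned by 29.6% (25.3 to 34.2) and 27.3% (21.99 to 33.07), against 13.7% and 9.70% by symbol. The medians were closer for entries on 1 transcript, at 4542 nt against 6341 by symbol, and inside a gene, at 368 nt against 350. With 1 end on an exon end the order turned, at 12458 nt against 8410. Entries with at least 10 reads had a median of 4517 nt, and 6116 by symbol.

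**Figure D3:**
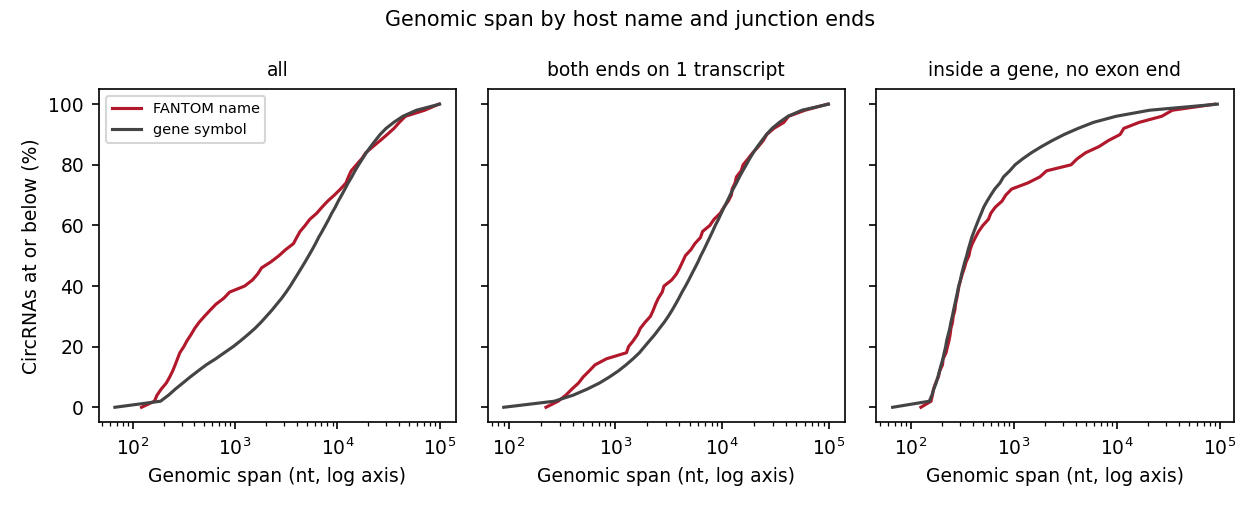
Cumulative share of circRNAs (y axis, percent) by genomic span (x axis, nt, log scale) for FANTOM hosts (red) and hosts named by gene symbol (grey), for all circRNAs and for entries with both ends on 1 transcript or inside a gene. The curves are farthest apart at short spans for all circRNAs and closer within the classes of ends shown, with FANTOM entries inside genes holding more long spans.

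A minority of FANTOM circRNAs lay over circRNAs named by symbol, mostly over those of the gene at the same locus. In the library labelled ISC 78 of 419 (18.6%, 15 to 22.7) overlapped by at least 1 nt a circRNA of that library with a gene symbol, and these held 40.3% of the FANTOM reads. Without the leading Zeb1 entry, a value added after the data were seen, they held 19.1% (17.2 to 21.1). In the other library 39 of 264 did (14.8%, 10.7 to 19.6), with 12.45% of reads. Of the overlapping entries 65 and 35 overlapped a circRNA of their own locus gene. A named host other than the locus gene was overlapped by 3.10% (1.66 to 5.25) and 1.52% (0.414 to 3.83) of entries. CircRNAs of a named host overlapped another named host in 0.384% and 0.418%, a share that leaves out their own gene by construction. A start or an end was shared with a named circRNA by 35 (8.35%) and 16 (6.06%). None had both in common, but each entry is listed by its coordinates with 1 host, so this was fixed by the listing. Overlap with a circRNA of another FANTOM name was found for 9.31% and 11.4%.

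Single loci were often split over names. FANTOM circRNAs with reads lay at 370 annotated genes, of which 265 (71.6%) were protein-coding, 42 lincRNAs, 24 antisense and 21 processed transcripts. Of the 370, 164 (44.3%, 39.2 to 49.5) were also a host by symbol. Joining both names gave 131 genes with at least 10 reads, and in 42 of them at least 50% of the joined reads stood under FANTOM names. For 41 of the 131 the symbol alone had under 10. Joined, 13 of these 41 passed as higher in that labelled ISC, 12 as lower and 16 neither way, beside 26.7% and 22.7% (49.4% either way) of 2920 host names. Of 90 with at least 10 reads by symbol, 5 changed their call.

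Ipo7 showed the split most plainly. Under its symbol it had 20 and 1 reads and was higher in the library labelled ISC, and under FANTOM names it had 103 and 59. Joined, 123 and 60 reads gave a ratio of 0.999 (0.728 to 1.38). Zfp207 also passed by symbol (19 and 2 reads) but not joined (19 and 3). Rbm39 went the other way, with 17 and 2 reads by symbol, not past the rule, and 131 and 15 joined, a ratio of 4.26 (2.49 to 7.82). Rsrc2 and Tmem87a likewise passed once joined, with 21 and 3 reads and 39 and 9 reads. At Zeb1 both names had the same direction, 575 and 8 under FANTOM and 649 and 12 by symbol, and the joined ratio was 29.8 (19.2 to 49.0). At Dym they differed: the clone entries had 12 and 25 reads, a ratio of 0.234 (0.107 to 0.483), and joined with 94 and 28 by symbol the ratio was 0.975 (0.695 to 1.38). Zfp207, Rsrc2 and Tmem87a were named after their values were seen.

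Some loci would have been missed by symbol. Pvt1 had 132 and 57 reads under FANTOM names and 2 and 0 under its symbol. Farsa (0 and 82), Rrp15 (39 and 10), Rnf115 (34 and 3), Srcap (21 and 14) and Fam13b (40 and 35) were no host by symbol at all. Fam13b held the largest family: the clone 4930539C08 listed 23 circRNAs, 22 with a read and 18 of these on 1 transcript. Its summed ratio was 0.557 (0.345 to 0.903), which did not reach 2-fold.

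**Figure D4:**
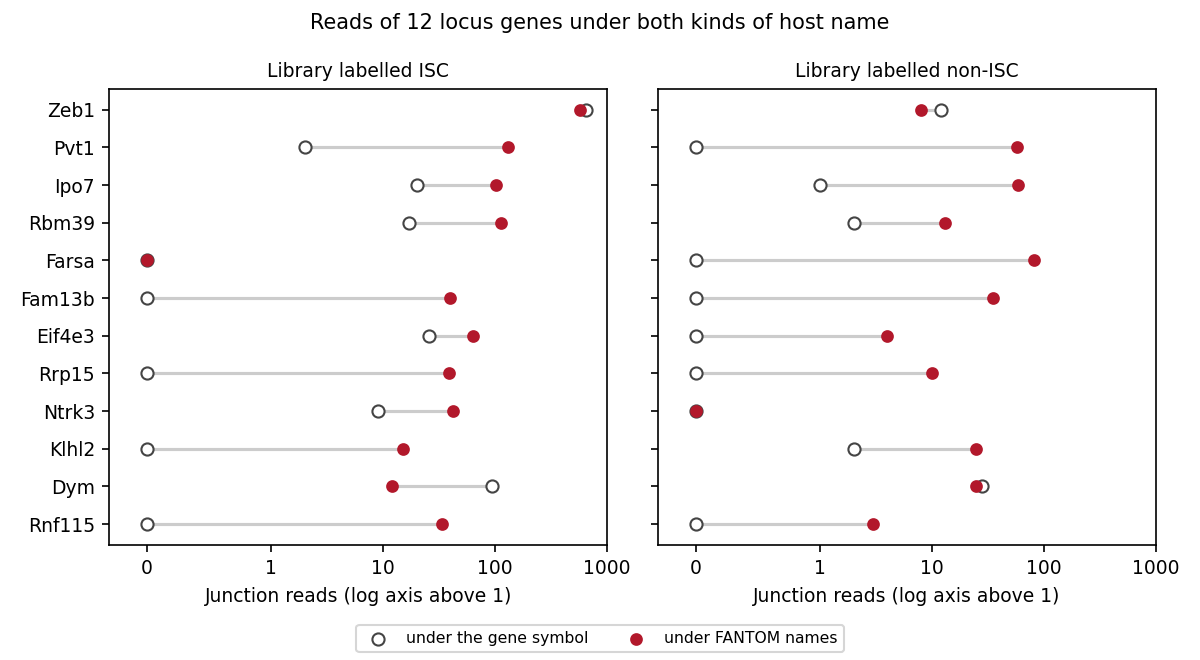
Junction reads (x axis, log scale above 1) of the 12 genes whose loci held the most FANTOM reads, under the gene symbol (open circles) and under FANTOM names (red), with the library labelled ISC on the left and labelled non-ISC on the right. Red lies to the right of open for Pvt1, Ipo7 and Rbm39 in both libraries, and the order is turned in both at Zeb1 (575 against 649 and 8 against 12) and Dym (12 against 94 and 25 against 28).

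Other clones with many entries were of different kinds. B020001O14 listed 16 circRNAs with 6 and 12 reads, strung over 24990551 nt of chromosome 13 and 8 genes, none with both ends on 1 transcript. I420007J21 listed 15, all mitochondrial, with 0 and 22 reads. A430110E10, at Ipo7, had 8 listed, 5 with a read and all of these on 1 Ipo7 transcript. 9630004O19 and A530012N23 also listed 8 each: the first spread over Eif4e3, Foxp1 and Gm20696 with 78 and 5 reads, the second lay in the zinc finger gene Hivep2 with 19 and 8. No name occurred on more than 1 chromosome.

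By chromosome, FANTOM circRNAs were uneven in reads more than in number. Chromosome 18 had 49 of 636 (7.70%, 5.75 to 10.1), against 3.35% by symbol. Of the 49, 22 belong to the clone 4930539C08 at Fam13b, and without that clone, computed after the values were seen, 27 of 614 entries (4.397%, 2.92 to 6.33) lay there. The chromosome held 658 reads labelled ISC (31.1%), 555 of them from the leading Zeb1 entry, and 108 labelled non-ISC (11.5%). Chromosome 7, with Ipo7 and Srcap, led the library labelled non-ISC with 126 reads (13.4%). Chromosome 8 had 43 and 118 reads, of which Farsa gave 82. The 25 mitochondrial entries, with 48 reads under 4 names, were all in the library labelled non-ISC. They were 9.47% of its 264 FANTOM entries with a read and had a median of 1 read. Their ends were not compared with exons, so back-splicing between exons was not examined for them. Entries with no host showed the same side, with 29 mitochondrial entries and 84 reads labelled non-ISC and 1 entry with 1 read labelled ISC. Hosts named by symbol had none. A count of 0 allows up to 3 reads in the library labelled ISC. Chromosome Y had no FANTOM entry.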

How the data were processed

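The authors deposited 1 list per library with the chromosome, start, end and host of each circRNA. Per the file headers it holds a whole-number count, an RPM value, which is that count per 1000000 reads, and the junction count. The deposited junction count was the measure used here. Trimmomatic 0.36, FastQC and mm9 are named in the submitters' processing notes, with the aligner and circRNA caller not given in the sources used here. FANTOM starts fell on GRCm38 exon starts for 42.0%, and at most 0.157% when shifted by 1 nt, so coordinates are given as GRCm38, counted from 1.

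An entry missing from a library was set to 0 reads. Locus genes came from GENCODE M21: both ends on exon ends before 1 end, before a position inside a gene, with protein-coding genes first. Intervals are exact at 95% and may be too narrow, since both mates of a pair can cross a junction. Shares are of junction reads, since totals implied by RPM were 52636694 and 72271995. Symbols that the files hold as dates were not matched, which leaves March3 and March7 without their symbol's reads. Python 3.11.15, pandas 2.3.3, scipy 1.17.1 and matplotlib 3.10.9 were used.

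Circles named are the 10 with most reads, the 5 with most in each library, 5 per direction with the interval bound farthest from 1, the 2 longest and 2 shortest with at least 10 reads, those with 10 reads at a listed gene, the 5 FANTOM names with most circRNAs (6 with ties) and the 5 loci with most FANTOM reads. Other names were chosen after their values were seen. The members and the 7 gene lists (lymphocyte, epithelium, stem cell, chromatin regulators, ubiquitin, RNA binding, cell division) were chosen with earlier results of these data known. Splice site letters were not examined, since a genome sequence was not used here.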

Additional observations from a re-analysis of the deposited data

Results flagged for a closer look

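In the library labelled non-ISC, 138 FANTOM entries had 0 junction reads and yet a deposited count above 3, the limit used for a count of 0. They were among 161 entries with 0 junction reads, 37.9% (33.2 to 42.7) of the 425 listed, and circRNAs named by symbol had such entries at 33.4%. In the library labelled ISC there was none. The median count of the 161 was 32. The highest was 101896, at the histone gene Hist1h1b (chr13:21750395-21832111). Of the 161, 14 had junction reads in the library labelled ISC.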

How the results depend on the processing

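The ratio of FANTOM reads depended most on what was counted. It was 3.09 (2.86 to 3.34) with totals implied by RPM, 0.315 (0.313 to 0.317) with the deposited count column and 1.59 (1.41 to 1.80) over entries with reads in both libraries. That last sum includes the leading Zeb1 entry, with 555 and 8 reads, and its value without this entry is not given. The median log2 ratio of the 18 shared entries with at least 10 reads was -0.31 (pseudocount of 0.5 reads). Alternatives added after the data were seen gave 0.8165 without the most abundant entry and 1.16 without mitochondrial entries. Of 38 FANTOM circRNAs 22 were higher and 8 lower with totals implied by RPM, in place of 16 and 12. Among all 3659 circRNAs 2140 and 426 were, in place of 1187 and 841. Over entries in both libraries 3 of 18 were higher and 5 lower, beside 15.7% and 20.2% of all 2542. With at least 20 reads 5 of 15 were higher and 6 lower, with at least 5 reads 16 of 96 and 27, and with junction reads halved 5 of 14 and 5. Shares over all circRNAs at these last settings are not given here, so these counts are not read as particular to FANTOM entries. With totals implied by RPM, 15 of 21 named circRNAs kept their call, 5 passed as higher that had not (Gas5, Rrp15, Pvt1, Ipo7 and Srcap) and Klhl2 no longer passed, at 0.981. At least 2 reads were held by 275 and 153 entries. At 5 reads the median span was 4423 and 4262 nt, and 50.8% and 74.4% had both ends on exon ends. Overlap of at least 50% of the entry was 12.2% and 10.6%, and overlap with named circRNAs of both libraries 20.5% and 20.1%. The shifts with totals implied by RPM follow from those totals, which change every ratio by the same factor. The cause of the other shifts was not tested, beyond the fewer entries left at higher minimum reads. No paired analysis was possible because each group has 1 library. Splice site letters were not run.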
